A study of Homo sapiens with 9 samples.

Results

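The surface mucins and CEACAMs examined here are 8 genes of the epithelial cell surface: MUC1, MUC4, MUC16, MUC20, CEACAM1, CEACAM5, CEACAM6 and CEACAM7. They were taken from the files by symbol and are 8 of the 78894 Ensembl gene identifiers in each file. RNA was sequenced in CAL27 cells, an established line of tongue squamous carcinoma origin, in a series about a tumour-promoting enhancer of head and neck cancer. There are 3 samples labelled Control and 2 for each of the knockouts labelled A2ko, A8ko and C9ko. All groups are untreated CAL27 cells. The labels do not name the sequence that was edited, nor do they say if a knockout is a single clone or a mixed population. Both A2ko files held the same values, as did both A8ko files, so each pair entered as 1 library and 7 distinct libraries remained. A2ko and A8ko therefore have 1 library each, with no replicate check and no test. Nothing in the labels says that the Control or C9ko samples came from separate cultures, so p-values measure only the spread between these samples, which may be technical.

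Transmembrane mucins are long proteins whose extracellular repeats carry dense O-linked sugar chains, and together they form much of the glycocalyx on the free surface of moist epithelia. Some also have a cytoplasmic tail that takes part in signalling, as in MUC1, or bind a receptor of the ERBB family, as MUC4 does with ERBB2. CEACAMs are adhesion molecules of the immunoglobulin superfamily that bind one another between cells. CEACAM1 spans the membrane and signals through phosphatases, whereas CEACAM5 (carcinoembryonic antigen), CEACAM6 and CEACAM7 are held by a lipid anchor. In oral mucosa, surface mucins and CEACAMs are mostly made by the differentiating upper layers.

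The values are TPM, a transcript abundance scaled to transcript length and to the library total, so levels of different genes can be set side by side. Between 15556 and 16716 genes reached 1 TPM per library, and the sequencing depth behind the values is unknown. Mitochondrial transcripts took 17.9% to 26.9% of the TPM, lowest in the C9ko libraries. All 9 squamous markers examined were at 1 TPM or more in every library. Their summed level was 15243 to 16435 TPM in Control and 6479 to 9917 TPM in the knockouts. Most of that sum was KRT5 (8716 to 9147 TPM in Control, 3082 to 5428 TPM in the knockouts) and KRT14. The list did not move as one: PKP1 and DSG3 were also lower in each knockout library, whereas CDH1 was at 100.3 to 106.3 TPM in Control and 138.3 to 177.0 TPM in the knockouts. Among leukocyte markers, which matter because granulocytes also carry CEACAMs, CEACAM8 was listed at 0 in every library and the sum of 7 genes was 0.80 to 1.05 TPM in Control and 1.23 to 1.56 TPM in the knockouts. ITGAM held most of the higher value in the C9ko libraries, and PTPRC was at most 0.023 TPM. The intestinal and glandular markers, 6 genes, summed to at most 0.17 TPM. Of the fibroblast markers COL3A1 was listed at 0 in every library, and the sum of 6 genes was 10.8 to 12.2 TPM in Control and 7.36 to 17.7 TPM in the knockouts. The endothelial list summed to 3.51 to 4.55 TPM in Control and 8.63 to 30.1 TPM in the knockouts, nearly all of it CDH5, while PECAM1 was at most 0.29 TPM. The part of the keratin, ITGAM and CDH5 differences in the results below was not tested. In bulk RNA, fewer cells that express a gene and less RNA per cell cannot be told apart.

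In Control cells the 4 mucins made up most of the signal, and the 8 genes spanned from 89.4 ± 4.28 TPM (SD, n = 3) for MUC1 to none for CEACAM7. MUC1 (ENSG00000185499, chromosome 1, 155185824 to 155192916 on GRCh38, minus strand) was at 94.2, 85.8 and 88.4 TPM. This placed it between the 90.7 and 91.2 percentiles of expressed genes, and it held 80.5% ± 1.70 (SD, n = 3) of the summed TPM of the 4 mucins. MUC16 (ENSG00000181143, chromosome 19, 8848844 to 8981342, minus strand), the largest of these mucins and the carrier of a serum antigen used in ovarian cancer, was at 16.9, 10.6 and 12.7 TPM. MUC4 (ENSG00000145113, chromosome 3, 195746765 to 195812277, minus strand) was at 6.55, 6.06 and 4.44 TPM. MUC20 (ENSG00000176945, chromosome 3, 195720882 to 195741123, plus strand), a small mucin encoded next to MUC4, was at 2.28, 2.87 and 2.96 TPM. No value of one of these genes overlapped those of the next in order.

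The CEACAMs were lower. CEACAM1 (ENSG00000079385, chromosome 19, 42507304 to 42561234, minus strand) was at 2.17, 2.15 and 2.02 TPM in Control, just below the lowest MUC20 value. CEACAM6 (ENSG00000086548, chromosome 19, 41750977 to 41772208, plus strand) was at 0.730, 1.09 and 0.914 TPM. CEACAM5 (ENSG00000105388, chromosome 19, 41708585 to 41729798, plus strand) was at 0.714, 0.244 and 0.271 TPM. The lowest CEACAM6 value and the highest CEACAM5 value were close to each other, so their order is narrow. CEACAM7 (ENSG00000007306, chromosome 19, 41673307 to 41706976, minus strand) was listed at 0 in all 7 libraries. All 8 genes are protein coding in GENCODE release 29, from which the positions come.

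A gene was tested when it had at least 1 TPM in at least 2 distinct libraries, which 17100 genes and 5 of the 8 members did. CEACAM5 and CEACAM6 fell under this filter and CEACAM7 had no signal. Differences are on the log2(TPM + 1) scale, where changes of genes at low levels come out too small.

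**Figure D1:**
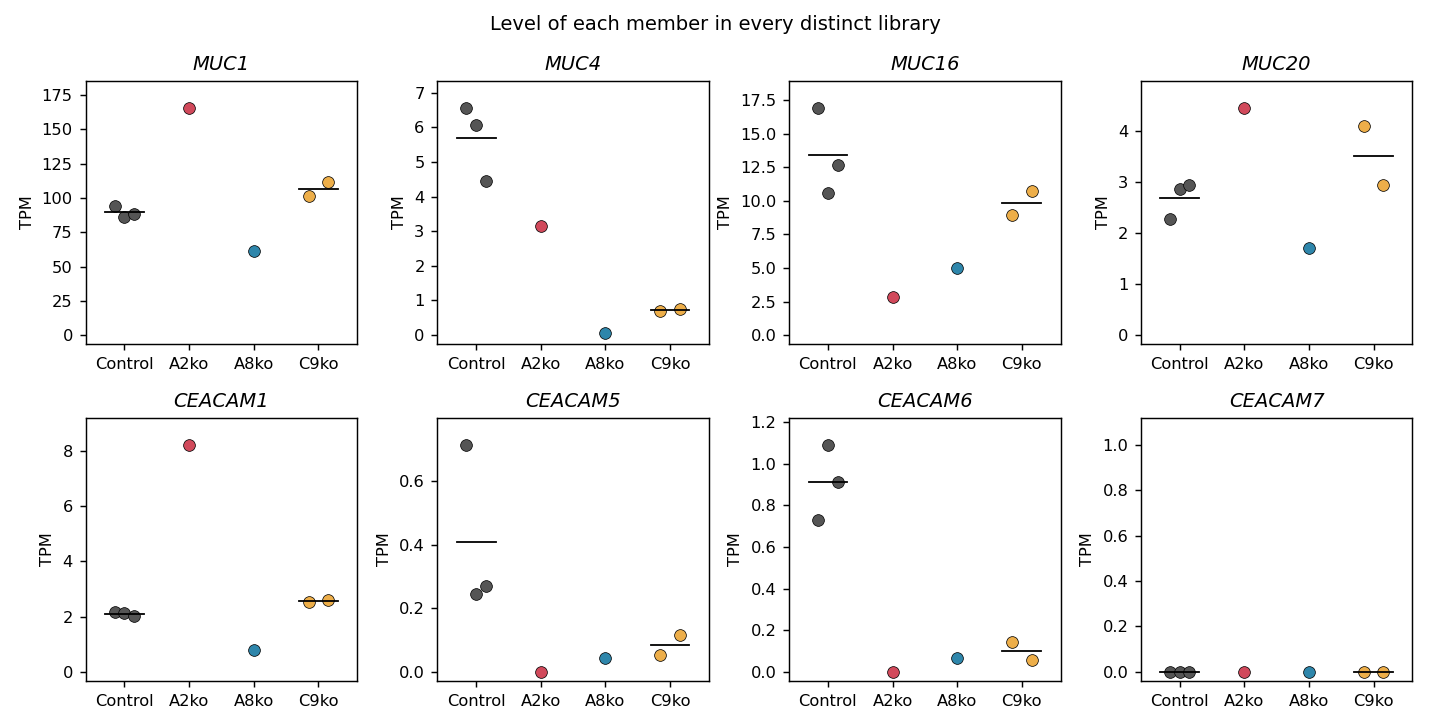
TPM of the 8 genes (vertical axes, from 0, each with its own range) in the 7 distinct libraries, by group; black lines are means of groups with more than 1 library. MUC4, CEACAM5 and CEACAM6 were lower in all 4 knockout libraries than in any Control library, whereas MUC1, MUC20 and CEACAM1 were highest in A2ko and lowest in A8ko.

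The sequence before the transcript start is shown for MUC4, MUC16, MUC1, CEACAM1, CEACAM5 and CEACAM6, so that the related CEACAM promoters can be set beside the unrelated mucin ones. Each is the 250 bases before a RefSeq start on GRCh38.p14, 5′ to 3′ in the direction of transcription. Capitals mark matches, on either strand, to 10 motifs. The TATA box was searched as TATAAA, the AP-1 motif as TGANTCA and the SOX motif as ATTGTT. The E-box was searched as CACGTG, the GC box as GGGCGG and the STAT motif as TTCNNNGAA. The KLF motif was searched as CCACCC, the TEAD motif as GGAATG, the FOX motif as TGTTTAC and the GRHL motif as AACNGGTT. Matches of different motifs do not overlap in these windows.
MUC4, chr3:195811930-195812179, minus strand: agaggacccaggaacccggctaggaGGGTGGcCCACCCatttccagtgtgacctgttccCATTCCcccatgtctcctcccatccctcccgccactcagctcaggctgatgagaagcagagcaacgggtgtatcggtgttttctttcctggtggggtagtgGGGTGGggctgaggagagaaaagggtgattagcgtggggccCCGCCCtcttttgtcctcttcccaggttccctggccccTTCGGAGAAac
MUC16, chr19:9065752-9066001, minus strand: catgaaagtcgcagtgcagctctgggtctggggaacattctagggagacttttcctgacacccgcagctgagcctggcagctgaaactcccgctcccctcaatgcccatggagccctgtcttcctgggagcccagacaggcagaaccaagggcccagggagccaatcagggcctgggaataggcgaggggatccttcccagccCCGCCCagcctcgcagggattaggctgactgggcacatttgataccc
MUC1, chr1:155192916-155193165, minus strand: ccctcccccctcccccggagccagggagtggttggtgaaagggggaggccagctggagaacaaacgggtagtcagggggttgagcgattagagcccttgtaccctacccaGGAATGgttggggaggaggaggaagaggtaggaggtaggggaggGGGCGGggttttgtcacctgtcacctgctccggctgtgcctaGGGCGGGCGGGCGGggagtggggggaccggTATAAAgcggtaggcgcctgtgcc
CEACAM1, chr19:42528482-42528731, minus strand: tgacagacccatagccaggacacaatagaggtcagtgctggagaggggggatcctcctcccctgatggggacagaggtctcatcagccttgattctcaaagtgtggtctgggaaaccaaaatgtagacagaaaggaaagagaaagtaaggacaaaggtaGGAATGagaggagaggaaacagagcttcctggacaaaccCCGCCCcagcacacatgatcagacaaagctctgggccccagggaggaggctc
CEACAM5, chr19:41708376-41708625, plus strand: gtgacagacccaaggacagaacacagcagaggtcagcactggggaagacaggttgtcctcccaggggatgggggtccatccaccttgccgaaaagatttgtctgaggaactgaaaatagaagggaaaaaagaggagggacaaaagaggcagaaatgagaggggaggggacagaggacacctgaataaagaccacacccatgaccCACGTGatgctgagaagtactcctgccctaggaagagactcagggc
CEACAM6, chr19:41755280-41755529, plus strand: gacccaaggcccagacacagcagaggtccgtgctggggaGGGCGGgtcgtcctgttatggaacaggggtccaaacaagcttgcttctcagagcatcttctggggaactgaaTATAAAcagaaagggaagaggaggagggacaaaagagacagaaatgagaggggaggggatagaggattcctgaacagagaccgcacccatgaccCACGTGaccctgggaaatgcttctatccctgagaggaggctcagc

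The CEACAM5 and CEACAM6 windows were alike at 190 of 250 aligned bases (76.0%), and each held CACGTG at nearly the same place, 46 to 41 and 45 to 40 bases before the start. This E-box occurs in 6.34% of 35116 RefSeq promoter windows of the same length. The CEACAM1 window, 68.0% identical to that of CEACAM5, held no CACGTG but GGGCGG and GGAATG, which occur in 42.6% and 11.9% of windows. For comparison, the CEACAM5 window was 51.2% identical to that of MUC4, 52% to that of MUC1 and 55.2% to that of MUC16. CEACAM7, which was listed at 0 here, had a window 82.4% identical to that of CEACAM5, with CCACCC and GGAATG and without CACGTG. The MUC1 window held TATAAA 24 to 19 bases before the start (10.7% of windows) and 4 GGGCGG matches, 3 of which overlap one another. The MUC4 window held TTCNNNGAA 11 to 3 bases before the start (6.57% of windows) and 3 CCACCC matches (31.3%), beside GGGCGG and GGAATG. The MUC16 window shown held 1 GGGCGG match. This window lies outside the GENCODE 29 bounds of the gene, since RefSeq places the start of MUC16 farther upstream. Another RefSeq start of MUC16 (window chr19:9010410-9010659, not shown) had TGANTCA 136 to 130 bases before it and CCACCC, without GGGCGG. The MUC4, CEACAM1, CEACAM6 and CEACAM7 windows lie inside the GENCODE 29 bounds of their genes, and that of CEACAM5 partly does. The AP-1, SOX, FOX and GRHL motifs were not found in the 6 windows shown. No window was available for MUC20, which is named only. A match describes letters, not a bound site.

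**Figure D2:**
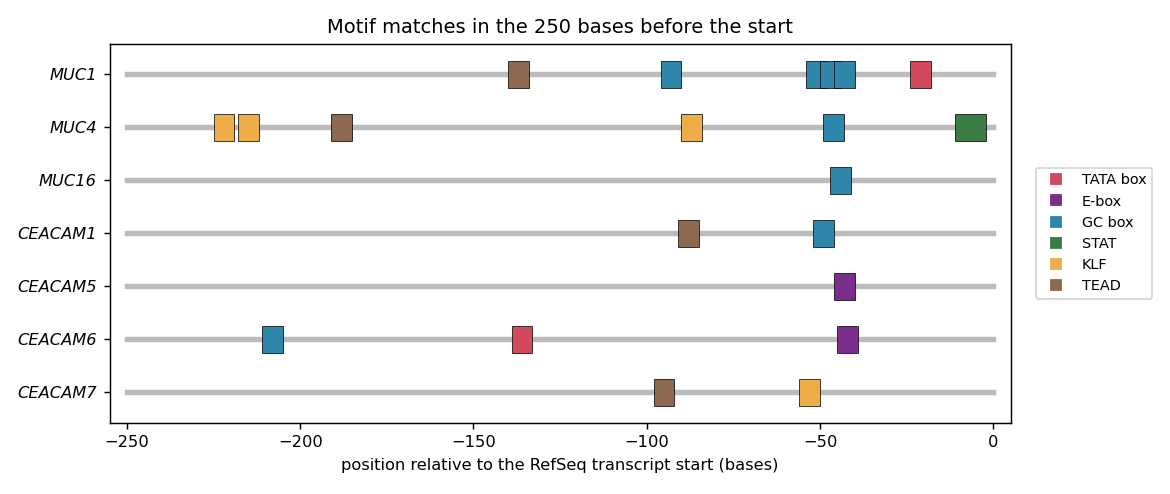
Positions of motif matches in the 250 bases before a RefSeq start of each of 7 members (horizontal axis, bases relative to the start; coloured boxes are matches). CEACAM5 and CEACAM6 share an E-box at nearly the same distance, and the MUC1 window alone among the 7 has a TATA box within 50 bases of the start.

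Of the tested members, MUC4 lay farthest below Control in A8ko and C9ko. It was at 6.55, 6.06 and 4.44 TPM in Control, 3.15 TPM in A2ko, 0.0485 TPM in A8ko, and 0.693 and 0.759 TPM in C9ko. All 4 knockout libraries lay below all Control libraries, and the A2ko value stayed closest to them. MUC4 differed by -1.94 in C9ko (SE 0.17, limma adjusted p 0.000307), and the mean Control level was 7.83 times that of C9ko. MUC4 reached 1 TPM in the Control libraries and in 1 knockout library, so it passed the filter only through the group where it is high. Without the filter the limma adjusted p was 0.0138, the highest over the 13 alternatives that could give a value, and each kept the call. In A8ko the difference was -2.66 and in A2ko it was -0.68.

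MUC16 was also lower, but with another order of the knockouts. Control libraries had 16.9, 10.6 and 12.7 TPM, A2ko 2.83, A8ko 4.96, and C9ko 8.94 and 10.7 TPM. A2ko and A8ko lay below every Control library, with differences from the Control mean of -1.89 and -1.25, while the higher C9ko library lay within the Control range. The difference in C9ko was -0.39 (SE 0.18, limma adjusted p 0.156) and did not pass the threshold. It was -0.22 without Control 1. A2ko thus held the lowest MUC16 value and the highest MUC4 value among the knockouts.

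CEACAM5 and CEACAM6 were low in Control and lower in the knockouts. For CEACAM6 the Control values of 0.730, 1.09 and 0.914 TPM stood against a listed 0 in A2ko, 0.0689 TPM in A8ko, and 0.143 and 0.0580 TPM in C9ko. For CEACAM5 the Control values of 0.714, 0.244 and 0.271 TPM stood against a listed 0 in A2ko, 0.0443 TPM in A8ko, and 0.0536 and 0.117 TPM in C9ko. Neither gene overlapped between Control and knockouts. Their sum, which does not depend on how reads were divided between them, was 1.32 ± 0.130 TPM in Control (SD, n = 3) and at most 0.197 TPM in a knockout library. Tested without the filter on low values, CEACAM6 differed in C9ko by -0.79 (SE 0.10, limma adjusted p 0.0313), and CEACAM5 differed by -0.36 (limma adjusted p 0.372). Levels this low may rest on few reads, and the depth is unknown.

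With MUC4, CEACAM5 and CEACAM6, 3 of the 7 members with any signal lay lower in every knockout library than in any Control library. The background for this count is 3.13% of the 42643 genes above 0 in at least 1 library. Among tested genes it is 4.61%, against 1 of the 5 tested members. No member lay higher in every knockout library than in any Control library, where 17% of tested genes did.

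MUC1, MUC20 and CEACAM1 took opposite sides of Control in A2ko and A8ko. MUC1 was at 85.8 to 94.2 TPM in Control, 165.3 TPM in A2ko and 61.5 TPM in A8ko. The A2ko level was 1.85 times the Control mean, a difference of 0.88 log2 units, and the A8ko difference was -0.53. C9ko, at 101.5 and 111.4 TPM, lay above all Control libraries, with a difference of 0.25 from their mean (SE 0.07, limma adjusted p 0.0427). That call is a narrow one: 9 of 14 alternatives lost it. Scaling by the median of ratios gave 0.12 (limma adjusted p 0.146). Leaving out Control 2, Control 3, C9ko 1 or C9ko 2 gave limma adjusted p of 0.105, 0.109, 0.0565 and 0.222.

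CEACAM1 differed by 2.37 log2 units between A2ko and A8ko. Control libraries had 2.17, 2.15 and 2.02 TPM, A2ko 8.22, A8ko 0.788, and C9ko 2.53 and 2.61 TPM. The A2ko library was 3.89 times the Control mean, a difference of 1.57 log2 units, while A8ko differed by -0.80. Both C9ko libraries lay above Control, but the difference of 0.20 (SE 0.11, limma adjusted p 0.220) did not pass the threshold. CEACAM1 was 61.6% ± 1.46 (SD, n = 3) of the summed TPM of the 4 CEACAMs in Control and 87.4% to 100% in the knockout libraries.

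MUC20 differed less. It was at 2.28, 2.87 and 2.96 TPM in Control, 4.45 TPM in A2ko, 1.71 TPM in A8ko, and 4.10 and 2.95 TPM in C9ko. The C9ko difference was 0.28 (SE 0.16, limma adjusted p 0.215), and 1 of its 2 libraries lay within the Control range. The difference was 0.098 without C9ko 1 and 0.47 without C9ko 2. MUC20 and MUC4 are neighbours on chromosome 3, and the ratio of MUC4 to MUC20 was 2.16 ± 0.683 (SD, n = 3) in Control, against 0.706 (A2ko), 0.0283 (A8ko), 0.169 and 0.257 (C9ko).

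Of the 5 tested members, C9ko called 2, MUC4 lower and MUC1 higher, against 29.5% of all tested genes (22% higher and 7.42% lower). Counted as lying outside the Control range and at least 1 log2 unit from its mean, 2 of 5 members differed in A2ko (CEACAM1 higher, MUC16 lower), against 5.07% of tested genes (3.54% higher and 1.53% lower). In A8ko 2 of 5 were counted (MUC4 and MUC16, both lower), against 4.73% (2.05% higher and 2.68% lower), and with a pseudocount of 0.1 CEACAM1, at -1.32, was also counted. With each knockout group taken as 1 value, limma called 0 of 5 members in all knockouts against Control, where 1.03% of tested genes were called (0.509% higher and 0.52% lower). At an unadjusted p under 0.05 there were 2 of 5, where 2740 of the 17100 tested genes were. These were MUC4 at -1.76 (SE 0.47, adjusted p 0.155) and MUC16 at -1.17 (SE 0.37, adjusted p 0.202). For MUC1, MUC20 and CEACAM1 this average mixes opposite directions. Leaving out A2ko, the call for MUC4 passed, at -2.30 (limma adjusted p 0.00428). The 3 single comparisons share the Control libraries. Over all tested genes the median difference was 0.12 (A2ko), 0.09 (A8ko) and 0.11 (C9ko), and the members' directions in each single knockout held after scaling by the median of ratios.

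**Figure D3:**
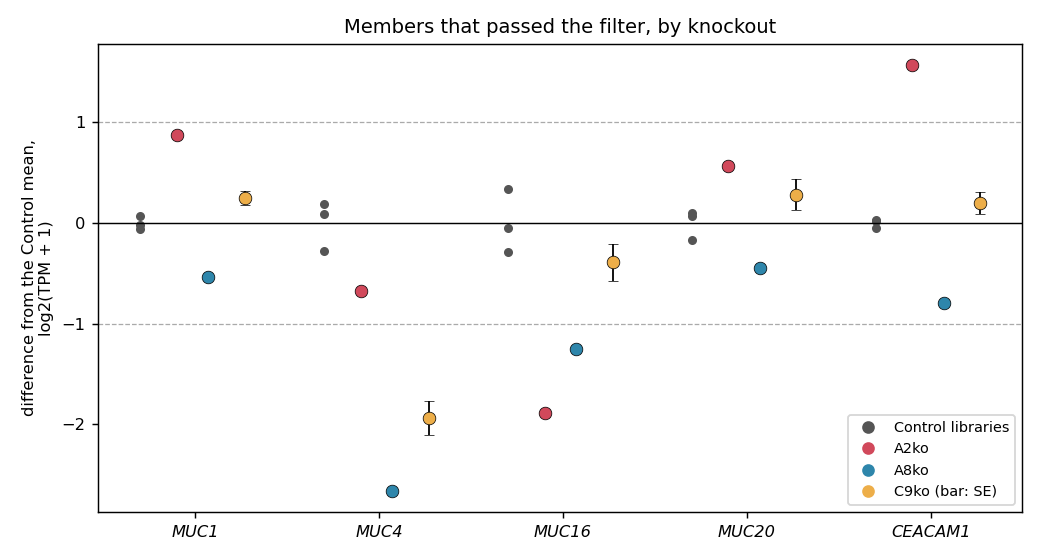
Difference from the Control mean in log2(TPM + 1) (vertical axis) for the 5 members that passed the filter. Small grey points are Control libraries, coloured points the knockouts (A2ko and A8ko are 1 library each, C9ko the mean of 2 with its SE), and dashed lines mark 1 log2 unit; MUC4 and MUC16 lie below 0 in every knockout, and A2ko and A8ko lie on opposite sides of 0 for the other 3.

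The order of the 8 genes was not the same in each group. MUC1 led in all 7 libraries. In A2ko it was followed by CEACAM1, MUC20, MUC4 and MUC16, which reversed the Control order of those 4. In A8ko MUC16 stayed the next highest at 4.96 TPM, but MUC4, at 0.0485 TPM, stood between CEACAM6 and CEACAM5. In C9ko MUC4 stood below CEACAM1 in both libraries. MUC1 made up 94.1% (A2ko), 90.1% (A8ko), 88.1% and 88.5% (C9ko) of the summed mucin TPM, against 78.5% to 81.5% in Control.

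How far reads can be told apart differs between the genes. In their longest coding transcripts in GENCODE 29, no stretch of 50 bases of MUC1, MUC4, MUC16 or CEACAM7 occurs in a transcript of another gene. For MUC20, 62.5% of such stretches do, mainly in the non-coding RNA MUC20-OT1 (43.5%), which overlaps it on the same strand, and in the pseudogene MUC20P1 (35.1%). MUC20-OT1 was at 26.8 to 29.8 TPM in Control, against 43.9 (A2ko), 33.7 (A8ko), 25.7 and 25.6 (C9ko), so the MUC20 values are uncertain. For CEACAM1 the share is 4.15%, for CEACAM6 7.92% and for CEACAM5 20.4%. Most of the CEACAM5 share lies in a read-through gene that joins it to CEACAM6 (ENSG00000267881) and was listed at 0 in every library. CEACAM1 overlaps LIPE-AS1 on the other strand (2.06 to 3.74 TPM in Control), and the sources used here do not give whether counting took strand into account.

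Neighbouring genes were read as the 5 tested genes beyond each end of a locus. For the C9ko counts below, 29.5% of all tested genes were called there (22% higher and 7.42% lower). Beside MUC1, which was called higher in C9ko, EFNA1, an ephrin ligand gene, was called higher there at 1.17 (limma adjusted p 0.000169), as was DPM3 at 0.58 (limma adjusted p 0.00620). Both are named because they were called, so they do not show how the MUC1 neighbours moved as a set. Around MUC4 and MUC20 the median differences of the neighbours were 0.33 (A2ko), 0.10 (A8ko) and 0.03 (C9ko). There 1 of 10 genes was called in C9ko, the transferrin receptor TFRC at 0.76 (limma adjusted p 0.000233). Around MUC16, where most neighbours encode zinc finger proteins, the medians in the same order were 0.27, 0.04 and 0.20, and RAB11B was the 1 called gene, at 0.34 (limma adjusted p 0.0294). The CEACAM locus was taken from CEACAM7 to CEACAM1. Beyond its ends 4 of 10 genes were called in C9ko, PSG4 and ETHE1 higher and LYPD3 and LINC03078 lower, and LINC03078 passed the filter only through Control. Inside it lay 19 other tested genes, of which 5 were called higher and 4 lower in C9ko, against 22% and 7.42% of tested genes.

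**Figure D4:**
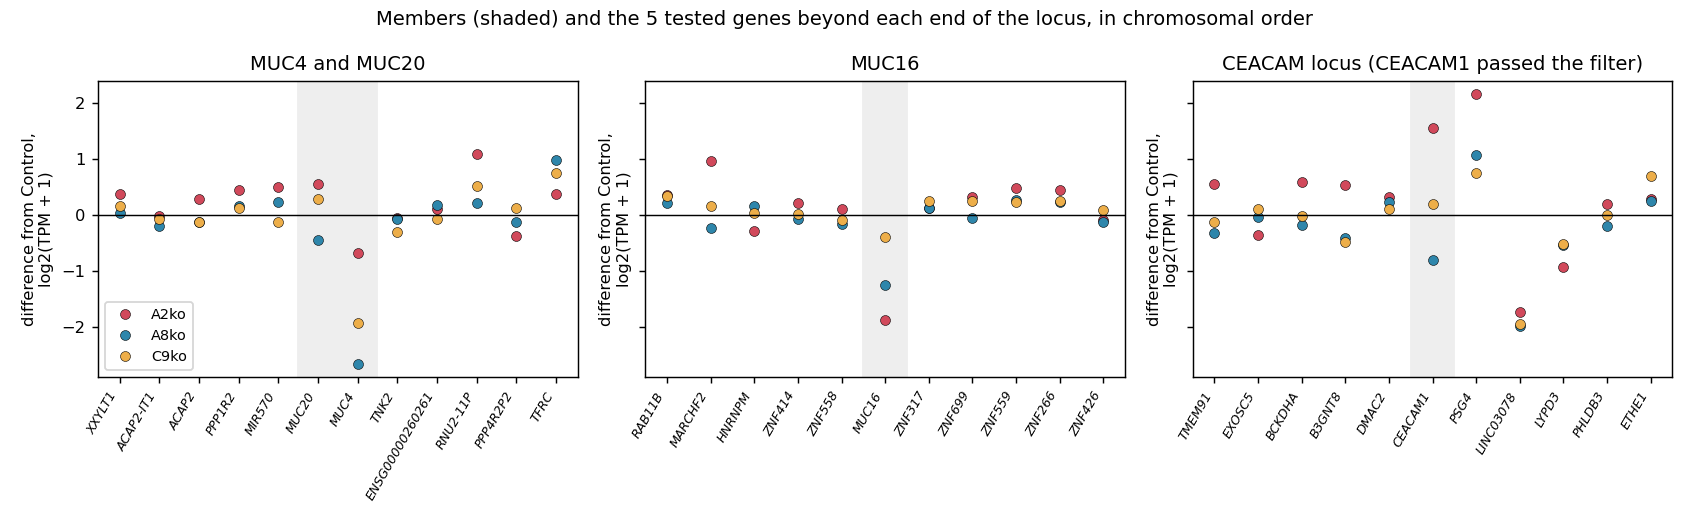
Difference from Control in log2(TPM + 1) (vertical axes) of MUC20, MUC4, MUC16 and CEACAM1 (shaded) and the 5 tested genes beyond each end of their locus, in chromosomal order with no scale of distance; genes inside a locus, 19 between CEACAM7 and CEACAM1 and MUC20-OT1, are not drawn. MUC4 and MUC16 each lie below the neighbours drawn for their own locus in all 3 knockouts.

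Across the 7 libraries, the gene of at least 5 TPM whose log2(TPM + 1) pattern was most like that of MUC1 was CD40, a receptor of the TNF receptor family (Pearson's r 0.996), followed by MAN2A2 (0.995). CD40 was at 18.9 to 22.4 TPM in Control, against 41.2 (A2ko), 13.8 (A8ko), 22.9 and 25.2 (C9ko). For MUC4 they were RHOV, a small GTPase (0.993), and the neuropeptide gene GAL (0.992). RHOV went from 104.7 to 113.9 TPM in Control to 66.7 (A2ko), 12.6 (A8ko), 21.4 and 24.8 (C9ko). For MUC16 they were LINC02984 (0.986) and TM4SF1, a tetraspanin-like surface protein (0.981), which was at 156.9 to 171.9 TPM in Control and 68.4 in A2ko. For CEACAM1 they were ACSF2 (0.998) and ENSG00000275764 (0.997), and for MUC20 EPB41L4A-AS1 (0.976) and HECTD4 (0.963). These r values describe the same 7 libraries in 4 groups, and the genes are those with the highest r in a search over all such genes.

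Apart from CEACAM19, the rest of both families was nearly silent. Of 11 transmembrane mucins, the 4 members were the only ones tested, and MUC3A, MUC12, MUC13, MUC15, MUC17, MUC21 and MUC22 stayed at or below 0.60 TPM in each library. None of the 6 secreted mucins, such as MUC2 and MUC5AC, passed the filter. Of 12 CEACAM family genes, CEACAM19 was the other one tested. It was at 7.24 to 9.30 TPM in Control, against 7.60 (A2ko), 7.83 (A8ko), 9.15 and 9.83 (C9ko), with a C9ko difference of 0.24 (SE 0.12, limma adjusted p 0.183).

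Enzymes that build the O-linked chains of mucins were called in both directions. Of 24 listed, 20 were tested, and 12 were called in C9ko, 8 higher and 4 lower, against 29.5% of tested genes (22% higher and 7.42% lower), with a median of 0.07 against 0.11 over all tested genes. GCNT3, which adds the branch of core 2 and core 4 chains in mucous tissues, was at 9.31 to 11.9 TPM in Control, against 5.33 (A2ko), 0.434 (A8ko), 1.34 and 1.28 (C9ko). Its C9ko difference was -2.27 (SE 0.13, limma adjusted p 6.83e-05). ST6GALNAC1, the sialyltransferase that makes the sialyl-Tn antigen, was at 2.03 to 3.05 TPM in Control, against 0.883 (A2ko), 0.0396 (A8ko), 0.421 and 0.505 (C9ko). It reached 1 TPM only in Control and so passed the filter only through it, and its difference in C9ko was -1.31. Both genes had the order of MUC4: Control highest, then A2ko, C9ko and A8ko. Enzymes that attach the initial sugar went both ways in C9ko, all named after their values were seen. GALNT2 at 0.44, GALNT3 at 0.48, GALNT6 at 0.40, GALNT10 at 0.75 and GALNT18 at 0.54 were called higher, GALNT12 at -0.79 was called lower, and GALNT1, GALNT4, GALNT7 and GALNT11 were not called. C1GALT1, which extends the chain, was called higher at 0.29, as was its chaperone C1GALT1C1 at 0.37. In A2ko, GALNT10 and GALNT12 were counted as higher and none as lower, against 3.54% and 1.53% of tested genes. In A8ko, GCNT3, ST6GALNAC1 and GALNT12 were counted as lower and none as higher, against 2.68% and 2.05%. In all knockouts together limma called 0 of the 20, against 1.03% of tested genes.

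**Figure D5:**
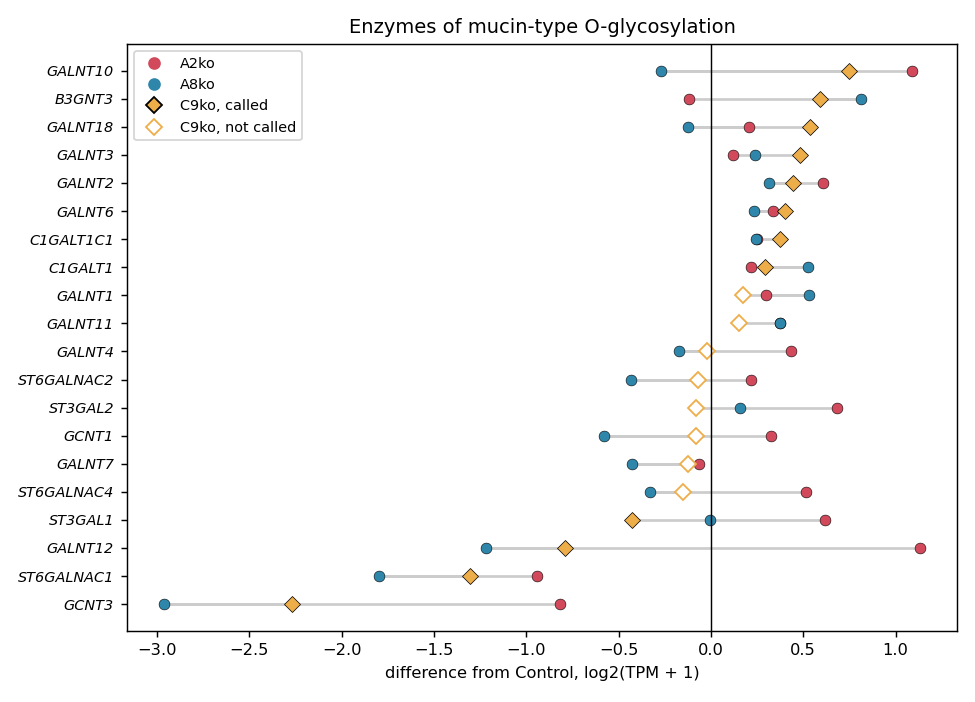
Difference from Control in log2(TPM + 1) (horizontal axis) of the 20 tested enzymes of mucin-type O-glycosylation, with circles for A2ko and A8ko (1 library each) and diamonds for C9ko (filled where limma called the gene). GCNT3 and ST6GALNAC1 lie below 0 in each knockout, and GALNT12 lies at 1.13 in A2ko and -1.22 in A8ko.

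Binding partners and sheddases of mucins and CEACAMs were called more often as higher than as lower in C9ko, as tested genes were. Of 17 tested, 7 were called there, 6 higher and 1 lower, against 29.5% of tested genes (22% and 7.42%). None was counted in A2ko or A8ko, against 5.07% and 4.73% of tested genes. The called gene with a difference over 1 was CTNNB1, which encodes beta-catenin, a partner of the MUC1 tail, at 1.28 (SE 0.08, limma adjusted p 8.21e-05). It was at 68.5 to 73.0 TPM in Control and at 163.3 and 186.5 TPM in C9ko. MSLN, which encodes the MUC16 ligand mesothelin, was at most 0.44 TPM. ERBB2, the partner of MUC4, was at 28.9 to 34.5 TPM in Control, against 48.6 (A2ko), 27.5 (A8ko), 33.8 and 36.3 (C9ko), with no call in C9ko (limma adjusted p 0.272).

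Epithelial transcription factors were split. Of 13 tested, 9 were called in C9ko, 4 higher and 5 lower, against 29.5% of tested genes (22% and 7.42%), and 6 lay lower in every knockout library than in any Control library, against 4.61% of tested genes. ZNF750, a driver of late keratinocyte differentiation, was at 14.1 to 14.5 TPM in Control, against 8.82 (A2ko), 1.46 (A8ko), 4.69 and 4.31 (C9ko), and fell by 1.47 in C9ko (SE 0.08, limma adjusted p 6.14e-05). OVOL1, also a differentiation factor, rose by 1.13 in C9ko (SE 0.10, limma adjusted p 0.000330). Its level went from 5.37 to 6.49 TPM in Control to 14.8 and 13.6 TPM. In A2ko 1 of the 13 was counted, GRHL3, as lower, against 5.07% of tested genes, and in A8ko 6 were, 1 higher and 5 lower, against 4.73%. None was called in all knockouts together, against 1.03% of tested genes.

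Genes of the upper layers of oral mucosa were mostly lower. Of 11 tested, 10 were called in C9ko, 2 higher and 8 lower, against 29.5% of tested genes (22% and 7.42%), with a median of -0.89. In A2ko 4 were counted, all lower, against 5.07% of tested genes, and in A8ko 5 were counted as lower and 2 as higher, against 4.73%. In all knockouts together 3 were called, all lower, against 1.03%. These were SCEL at -1.90 (limma adjusted p 0.00510), EMP1 at -0.91 (adjusted p 0.0238) and TMPRSS11D at -1.15, which reached 1 TPM only in Control and so passed the filter only through it. SCEL, which encodes the cornified envelope protein sciellin, was at 8.68 to 9.66 TPM in Control, against 2.13 (A2ko), 1.52 (A8ko), 1.36 and 1.88 (C9ko). SPRR3, also a gene of these layers, was at 0.430 to 0.978 TPM in Control, 4.47 and 3.24 TPM in C9ko and 3.43 TPM in A8ko, and was listed at 0 in A2ko. SPRR3 passed the filter only through A8ko and C9ko. CNFN, the other gene called higher and named after its values were seen, was at 1.98 to 2.55 TPM in Control. Its values were 3.75 (A2ko), 7.13 (A8ko), 7.47 and 4.45 TPM (C9ko), with a C9ko difference of 1.10 (limma adjusted p 0.00679). KRT4 and KRT13, the keratins of mucosal suprabasal cells, had the largest differences of the list in C9ko, at -6.58 and -4.95 (limma adjusted p 1.96e-06 and 5.70e-06). In A2ko, KRT4 differed by -2.37, but KRT13 only by -0.17, at 83.1 TPM against 88.7 to 97.2 TPM in Control, and was not counted.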

How the data were processed

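RNA from CAL27 cells was sequenced from polyA libraries made by a strand-marking (dUTP) method, per the labels' protocols. The deposited values are TPM per Ensembl gene, computed by the authors on hg38, per the submitters' processing notes; the aligner, quantifier and annotation are not given in the sources used here. TPM keeps no depth, so no counting interval is given.

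Symbols matched 61463 of 78894 identifiers, and positions came from GENCODE 29 (GRCh38) for 57342. limma 3.58.1 in R 4.3.3 was fitted to log2(TPM + 1) of all 17100 tested genes (lmFit, then eBayes with a mean trend), p-values were adjusted by Benjamini-Hochberg and the threshold was 0.05. C9ko was contrasted with Control in a fit of all 4 groups. All knockouts were compared with Control with each knockout group as 1 value. The scripts were tested on simulated data. All 8 members are named. From the lists, genes called in C9ko with a difference of at least 1, or called in all knockouts, are named, at most 4 per list and comparison. The members and lists were chosen with earlier results of these data known. Alternatives changed the pseudocount, filter, scaling, fit and libraries. Other neighbours of MUC1 are not reported here.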

Additional observations from a re-analysis of the deposited data

Results flagged for a closer look

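For 3 members A2ko lay above every Control library and A8ko below every Control library. The distance between A2ko and A8ko on the log2(TPM + 1) scale was 2.37 for CEACAM1, 1.41 for MUC1 and 1.01 for MUC20. CEACAM1 was at 8.22 TPM in A2ko and 0.788 TPM in A8ko, MUC1 at 165.3 and 61.5 TPM, and MUC20 at 4.45 and 1.71 TPM. The difference was not tested, since each of these groups has 1 distinct library. The directions held after scaling by the median of ratios, with A2ko at 1.47, 0.75 and 0.46 and A8ko at -0.86, -0.63 and -0.52 for CEACAM1, MUC1 and MUC20.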

How the results depend on the processing

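The C9ko comparison called 5038 genes. The fit with the replicate number as a block called 3248, leaving out 1 replicate at a time 3301 to 4174, and counting all 9 files as separate libraries 8166. The members called were 2, and 1 (MUC4) with scaling by the median of ratios, without mitochondrially encoded genes, with eBayes without trend and under the block. With a mean of at least 5 TPM the 1 called was MUC1, since MUC4 was not tested there, and leaving out 1 replicate gave 1 to 2. Same-numbered Control and C9ko samples did not deviate together (correlations of -0.05 and -0.01 over 17100 genes, 2 shared numbers). Deviations from a mean of 2 C9ko libraries mirror each other, so these values cannot decide whether equal numbers pair the samples. No paired analysis was possible because there is 1 library or value per group in the other comparisons. For all knockouts 176 genes were called, against 23 with no filter, 1993 without A2ko, 67 without C9ko, 5 to 11 without 1 Control replicate, and 4361 where the 3 knockout coefficients of the joint fit were averaged. The members called were 0, against 1 without A2ko (MUC4) and 3 with that average (MUC4, MUC16 and CEACAM1, limma adjusted p 0.000403, 0.00295 and 0.0470). Without A2ko, 3 members changed sign: MUC1 to -0.14, MUC20 to -0.081 and CEACAM1 to -0.30. A pseudocount of 0.1 moved the genes counted in A2ko from 867 to 1813 and in A8ko from 809 to 1689 (members in A8ko from 2 to 3), and a mean of at least 5 TPM moved them to 380 and 412, with 1 member counted in each instead of 2. Apart from fewer genes or samples in a setting, the cause was not tested. The depth is unknown, so values under 1 TPM cannot be given a counting error.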

Other observations

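Chosen after their values were seen, 3 further genes related to the members by family or place are given here. PSG4, a pregnancy-specific glycoprotein of the wider CEACAM family encoded beside the CEACAM locus, was at 4.31 to 5.29 TPM in Control, against 24.9 (A2ko), 11.3 (A8ko), 8.65 and 8.92 (C9ko). Its difference in C9ko was 0.75 (SE 0.10, limma adjusted p 0.00173). CXCL17, a chemokine of mucosal surfaces that lies between CEACAM6 and CEACAM1, was at 0.836 to 1.38 TPM in Control and 0.0952 to 0.270 TPM in the knockout libraries. It passed the filter only through Control. GALNT14, an enzyme that attaches the initial sugar of O-linked chains, fell under the filter because A2ko alone reached 1 TPM. Control libraries had 0.588 to 0.925 TPM and A2ko 8.49 TPM, whereas C9ko had 0.0295 and 0.0837 TPM and the A8ko value was listed at 0.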
